A study of Rattus norvegicus with 170 samples.

Results

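The cells compared here are alpha cells and beta cells from rat pancreatic islets that had been cultured with GNF4877, an inhibitor of the protein kinases DYRK1A and GSK3B. They were chosen by their hormone reads. An alpha cell held at least 1000 RPM (reads of a gene relative to all reads mapped in that cell) of the glucagon gene Gcg and less than 1000 RPM of the insulin gene Ins1. A beta cell held at least 1000 RPM of Ins1 and less than 1000 RPM each of Gcg, somatostatin (Sst) and pancreatic polypeptide (Ppy). This rule took 18 alpha and 54 beta cells, 72 of the 170 cells in the series. All islets came from 8-week-old wild type male Sprague Dawley rats and were kept whole for 48 h in RPMI1640 with 10% FBS and 5.5 mM glucose. The treated islets received 3 µM GNF4877 and the control islets 0.1% DMSO. Islets were then dispersed with trypsin, single cells were caught on Fluidigm C1 chips, and the cDNA of each cell was sequenced as its own library. By the same rule the DMSO cells held 5 alpha and 50 beta cells, which are given beside the treated cells where they help. Among these, DMSO alpha cell 33 also held Sst above 1000 RPM, at 1672 RPM. Most DMSO cells with at least 1000 RPM of Gcg also held at least 1000 RPM of Ins1 and so entered neither class. DMSO cell 14, with 183474 RPM of Gcg and 68578 RPM of Ins1, is an example. Of the treated cells only 1 was left out in this way, so the DMSO alpha cells are a narrower choice than the treated ones. Each treatment was 1 sample, so cells are not replicates, no test was run, and treatment, chip and sequencing lane cannot be told apart.

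Alpha cells and beta cells are neighbours in the islet with opposing hormones. Alpha cells release glucagon when blood glucose is low, and glucagon drives the liver to release glucose. Beta cells take up glucose through a transporter in their membrane, and its metabolism closes potassium channels, lets calcium in and releases insulin. The cell types arise from a common endocrine progenitor, and a small set of transcription factors, among them Irx2 for alpha and Pdx1 for beta cells, marks each identity.

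Alpha and beta cells had been sequenced to a similar depth, while fewer genes were read in the alpha cells. Mapped reads ran from 421665 through a median of 1388770 to 1983675 in alpha cells and from 583474 through 1434260 to 2171570 in beta cells. These ranges overlap over most of their length. An alpha cell had reads of 4137 to 8339 genes, with a median of 5864.5, and a beta cell of 4294 to 8660, with a median of 6995. With each cell thinned to 100000 reads the medians were 3996.5 genes in alpha and 4881 in beta cells. The part that this difference plays in the ratios given here was not tested.

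The hormone reads that chose the classes took a larger part of the reads in alpha than in beta cells. Gcg took 4.38% to 53.98% of the mapped reads of an alpha cell, with a median of 27.2%, and Ins1 and Ins2 together took 0.257% to 33.7% of those of a beta cell, with a median of 3.09%. As a description of the choice only, Gcg stood at 43763, 271660 and 539847 RPM (lowest, median and highest) in alpha cells and at 12.9, 73.7 and 454 RPM in beta cells. Ins1 stood at 7.05, 24.2 and 813 RPM in alpha cells and at 2435, 25143 and 184281 RPM in beta cells. The classes do not overlap in either gene, because these thresholds chose them. The lowest Gcg above the threshold was 43763 RPM in an alpha cell, with 37011 RPM in a cell left out for its Ins1 of 40717 RPM, and the highest below it was 454 RPM in a beta cell. For Ins1 the nearest values were 2435 RPM in beta cell 44 and 813 RPM in alpha cell 27. For Sst they were 15778 RPM in a cell of neither class and 76.9 RPM in alpha cell 53. For Ppy they were 2293 RPM in a cell of neither class and 813 RPM in alpha cell 53.

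**Figure D1:**
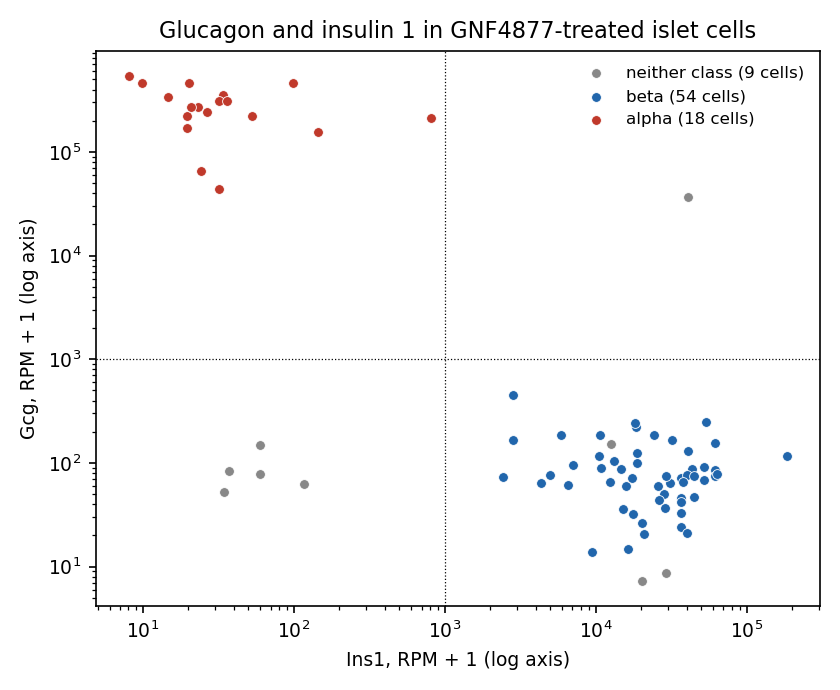
Gcg against Ins1 in each of the 81 treated cells with enough reads (RPM + 1, log axes), with the thresholds of 1000 RPM dotted. The 18 alpha cells lie at the upper left, the 54 beta cells at the lower right and the 9 cells of neither class in grey, 1 of them high in both genes.

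Of the 84 treated cells, 3 fell below a total of 300000 RPM and 9 others entered neither class. Among the 9, 1 held both Gcg and Ins1, 3 held Ins1 with Sst or Ppy, 1 held Sst, 3 held Ppy, and 1 held none of these hormones at the threshold. Of the alpha cells, 2 also held Ppy above 1000 RPM, cell 59 with 15428 RPM and cell 8 with 5480 RPM, and 0 held Sst above it. No cells shared a column of values.

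The names alpha and beta were checked against genes that the rule did not use. Ins2, the other rat insulin gene, stood at 1.87, 8.06 and 37.5 RPM in alpha cells and at 115, 5652 and 152865 RPM in beta cells. The classes did not overlap for Ins2. How surely reads were assigned between Ins1 and Ins2 was not tested, so Ins2 is not a check fully apart from the rule. Slc2a2, the glucose transporter GLUT2 of beta cells, stood at 0, 8.08 and 35.6 RPM in alpha cells and at 0, 1136 and 13689 RPM in beta cells. These ranges overlap only through the beta cells lowest in Slc2a2, and the alpha cell was the higher one in 8.38% of all pairs of an alpha and a beta cell. Irx2, a homeodomain factor of alpha cells, was read in 10 of 18 alpha cells (55.6%) and in 0 of 54 beta cells (interval up to 6.60%, exact Clopper-Pearson). Such limits cover the count of cells with a read at this depth, and no read is not absence. Slc38a5, an amino acid transporter listed as an alpha cell marker, did not divide the classes. It stood at 189, 1924 and 12895 RPM in alpha cells and at 2.76, 801 and 11269 RPM in beta cells. Its log2 ratio of alpha to beta cells was 0.66, within 2-fold, and its ranges overlap almost fully.

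Other markers went against the names or were not seen. Mafa, a factor of mature beta cells that switches on insulin, had 0 reads in both classes. Tm4sf4, listed for alpha cells, had a log2 ratio of -1.08, on the beta side. Ffar1, the fatty acid receptor GPR40 listed for beta cells, had a log2 ratio of 1.25, and Tmem27 one of 1.20, both on the alpha side. For Ffar1 the value was 0.49 without alpha cell 66 and 1.92 without beta cell 11. Slc7a2 stood at -0.14, and Loxl4 had 0 reads in either class.

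Alpha cell 42 stood apart from the other alpha cells. Its Gcg of 43763 RPM was the lowest of the class, and it alone held reads of fibrillar collagens and other matrix genes at a high level. It had 1382 RPM of Col3a1, 1310 RPM of Sparc and 646 RPM of Col1a1, against at most 0, 0.705 and 1.19 RPM in the other 17 alpha cells. Vim, the intermediate filament vimentin of mesenchymal cells, stood at 7773 RPM in it, and the next alpha cell had 626 RPM. It also held 166 RPM of Etv1, a gene higher in alpha than in beta cells. The study kept only chip ports checked to hold 1 cell, no further test of cell 42 was run here, and values without it are given where it decides a result.

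Alpha cell 27, which had the highest Ins1 of the class, also carried most of the alpha reads of several beta cell genes. It held 99.1% of the summed alpha level of Pcsk1, 92.99% of that of LOC100911216, 86.7% of that of Fam151a and 85.2% of that of Sytl4. The log2 ratio of Pcsk1 was -5.60 with this cell and -8.03 without it. Corresponding values were -5.11 and -7.69 for LOC100911216, -7.16 and -8.66 for Fam151a and -5.80 and -7.30 for Sytl4. All 4 genes were thus on the beta side either way.

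Across the transcriptome more genes were higher in beta cells than in alpha cells. The measure is the log2 of the mean RPM plus 1 in alpha cells over the mean RPM plus 1 in beta cells, and RPM is not divided by transcript length, so levels are compared between cells and not between genes. Of 16280 genes with a read in either class, 1905 (11.7%) were at least 2-fold higher in alpha cells and 4667 (28.7%) at least 2-fold higher in beta cells. The median log2 ratio of all genes was -0.28. When each cell was scaled to its reads of genes other than 8 islet hormones and peptides, that median was higher by 0.20, and 39.5% of the genes past 2-fold lay on the alpha side, against 28.99% as first scaled. With a difference of mean log2 values in place of the ratio of means, 14.3% lay on the alpha side. Among the 9091 genes with a mean of at least 10 RPM in either class, the median was -0.42, with 1242 genes at least 2-fold higher in alpha and 2932 in beta cells.

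Among genes read in at least 75% of alpha cells at a mean of at least 10 RPM, with Gcg and Ppy left out, the highest ratios were led by Etv1, an ETS family transcription factor, and Rbp4, the plasma carrier of retinol. Etv1 stood at 0, 389 and 1375 RPM in alpha cells and at 0, 0 and 1.18 RPM in beta cells, a log2 ratio of 8.61. Rbp4 stood at 0, 114 and 565 RPM in alpha cells and at 0, 0 and 1.24 RPM in beta cells, a log2 ratio of 7.15. Both genes overlapped between the classes only at or near 0, where 2 alpha cells lacked Etv1 and 1 lacked Rbp4. Beta cells with a read numbered 7 of 54 for Etv1 and 5 of 54 for Rbp4. After thinning to 100000 reads they numbered 0 and 1, while the alpha cells numbered 16 and 17 as before. Rbp4 had been listed as a marker of delta cells and Etv1 as one of PP cells, so neither list name described these cells.

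Secreted protease inhibitors of the serpin family were also among the highest ratios. Serpina3n stood at 0, 1237 and 12562 RPM in alpha cells and at 0, 0.586 and 1414 RPM in beta cells, a log2 ratio of 6.17. A single beta cell, cell 12, held 96.5% of the summed beta level of Serpina3n, and the ratio without it was 10.003. Serpina1, which encodes alpha-1-antitrypsin, had a log2 ratio of 6.33 and was read in 14 of 18 alpha and 18 of 54 beta cells. Its ratio was 8.40 without beta cell 21. LOC299282, a further gene among these 15, had a ratio of 5.21, or 6.34 without beta cell 12. The classes overlapped for all 3, since some alpha cells had 0 reads of each.

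Gria3 and Tmsb4x were read in every alpha cell. Gria3, a subunit of AMPA-type glutamate receptors, stood at 0.733, 49.1 and 699 RPM in alpha cells and at 0, 0.650 and 22.7 RPM in beta cells, a log2 ratio of 4.75. Tmsb4x, the actin-binding peptide thymosin beta 4, stood at 19.1, 151 and 1207 RPM in alpha cells and at 0, 2.85 and 219 RPM in beta cells, a log2 ratio of 4.01. The ranges of both overlap, but the alpha cell was higher in 91.05% of pairs for Gria3 and in 96.2% for Tmsb4x. Tmem176a, a membrane protein gene, had a log2 ratio of 5.804, or 6.96 without beta cell 64, and Tmem140 one of 3.49. Ryr2, a calcium release channel of the endoplasmic reticulum, stood at a mean of 20.04 RPM in alpha and 1.30 RPM in beta cells, a log2 ratio of 3.20, or 2.44 without alpha cell 85.

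For 5 of the 15 highest ratios more than 50% of the summed alpha level came from 1 cell. Sema4f, a semaphorin, had a ratio of 4.58, but 97.7% of its alpha level lay in cell 9 and the ratio without that cell was -0.30. Gja1, the gap junction protein connexin 43, had a ratio of 3.97 and 0.41 without cell 42. Hivep3 had 3.65 and 1.497 without cell 66, Catsperg1 had 3.55 and 2.60 without cell 77 (4.16 without beta cell 24), and LOC100909569 had 3.55 and 2.26 without cell 7. Sema4f was higher in the alpha cell in 46.1% of pairs, so its ratio does not describe the typical cell.

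The genes lowest in alpha against beta cells were led by Ins2 and Slc2a2, with Ins1 left out. After Ins2, at a log2 ratio of -9.64, came Slc2a2 at -8.09. Hadh, a mitochondrial enzyme of fatty acid oxidation that also restrains insulin release, stood at 0, 1.12 and 42.7 RPM in alpha cells and at 0, 719 and 6121 RPM in beta cells, a log2 ratio of -7.71, or -8.47 without alpha cell 94. The classes overlap through a few beta cells at the low end, and the alpha cell was higher in 6.17% of pairs. Iapp, the amylin gene whose peptide is released with insulin, stood at 0.705, 12.1 and 882 RPM in alpha cells and at 3.61, 3200 and 19202 RPM in beta cells. Its log2 ratio was -5.85, or -7.08 without alpha cell 34, which held 60.4% of the alpha level, and the ranges overlap.

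Pcsk1, the convertase that starts to process proinsulin, was read in 2 of 18 alpha cells and 50 of 54 beta cells. It stood at 0, 0 and 81.9 RPM in alpha cells and at 0, 193 and 1274 RPM in beta cells. Both alpha cells with a read lie within the beta range. Trpm5, a cation channel opened by calcium, had a mean of 0.690 RPM in alpha and 131 RPM in beta cells, a ratio of -6.29. Sytl4, which encodes the granule protein granuphilin, stood at a mean of 3.25 and 236 RPM. Fam151a stood at 0, 0 and 47.5 RPM in alpha cells and at 0, 331 and 4011 RPM in beta cells. These ranges overlap as well, and the alpha cell was higher in 6.28% of pairs for Fam151a and in 10.8% for Trpm5.

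The remaining genes of the 15 lowest were of mixed function. Cxcl11, a chemokine, had a log2 ratio of -7.52, with 29.2% of its beta level in cell 72. Pclo, a scaffold protein of the secretory zone, stood at -5.35, or -5.97 without alpha cell 27, and Slc29a4, a monoamine transporter, at -4.72. Msln, the cell surface protein mesothelin, stood at a mean of 24.2 RPM in alpha and 908 RPM in beta cells, a ratio of -5.17, or -6.19 without alpha cell 20. LOC690918 stood at -6.86. Wdr45 had 2 alpha reads in all, so that the ratio of its pooled reads was 0.00346 with a counting interval of 0.000419 to 0.0125. Intervals of this kind, and those of shares, cover counting error only. None of the 15 had more than 50% of its beta level in 1 cell.

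**Figure D2:**
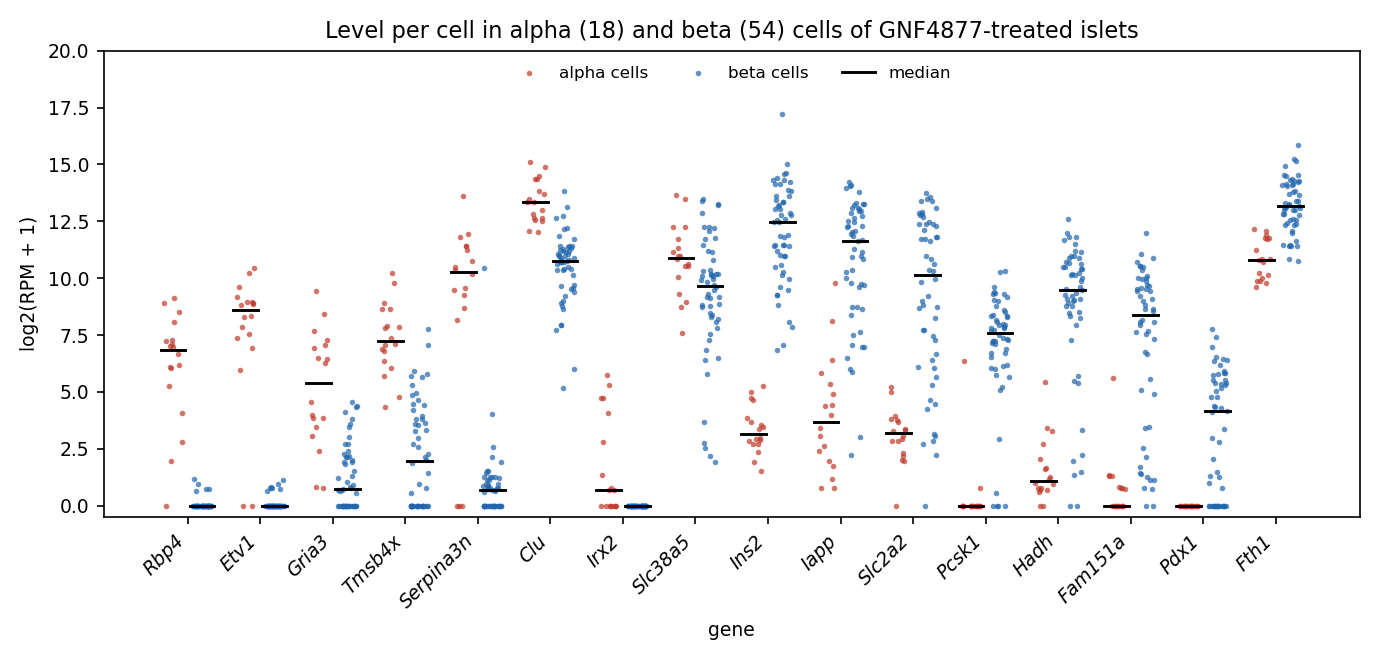
Level of 16 genes in each of 18 alpha (red) and 54 beta (blue) cells of treated islets, as log2(RPM + 1), with black bars at the medians. Rbp4, Etv1, Gria3, Tmsb4x, Serpina3n and Clu lie higher in alpha cells, Ins2 to Fth1 lie higher in beta cells, Irx2 was read in alpha cells only, and Slc38a5 overlaps.

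How cleanly a gene parts the classes can be read cell by cell from the pairs, a measure chosen after the values had been seen. Of all genes, 8 (0.0491%) were higher in the alpha cell in at least 90% of pairs and 33 (0.203%) in at most 10%, with ties counted as 0.5. Only 3 (0.0184%) had ranges that did not overlap at all, Gcg and Ins1, on which the cells were chosen, and Ins2. On the alpha side were Gcg, Rbp4, Clu, Tmsb4x, Etv1, LOC100361528, Gria3 and LOC299282. Clu, the secreted chaperone clusterin, stood at 4129, 10315 and 35744 RPM in alpha cells and at 35.4, 1752 and 14388 RPM in beta cells, a log2 ratio of 2.57. The Clu ranges overlap, yet the alpha cell was higher in 96.4% of pairs.

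Further genes with lower levels in alpha cells can be named, picked after their values were seen. Fth1, the heavy chain of the iron store ferritin, stood at 789, 1798 and 4594 RPM in alpha cells and at 1704, 9113 and 58805 RPM in beta cells, a log2 ratio of -2.54 with overlapping ranges. Ndrg4 stood at a mean of 34.6 RPM in alpha and 632 RPM in beta cells, a ratio of -4.15. Its alpha mean lay far above the alpha median of 1.55 RPM, with 412 RPM in the highest alpha cell. Sec11c, a subunit of the signal peptidase, had a ratio of -2.54, and Tmed10, a carrier between endoplasmic reticulum and Golgi, one of -1.76. Tmbim6, which guards against death from endoplasmic reticulum stress, stood at -1.86. Pkm, the pyruvate kinase of glycolysis, stood at -1.86 and Mdh1, the malate dehydrogenase of the cytosol, at -2.36. Genes of the Ugt1a family were also lower, from Ugt1a3 at -3.10 to Ugt1a7c at -3.65, whose transcripts share exons, so reads cannot be assigned to a single member with certainty.

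Transcription factors of alpha cells were read in alpha cells and hardly in beta cells. Of 7 on the list, 6 (85.7%) were at least 2-fold higher in alpha cells and 0 in beta cells, against 11.7% and 28.7% of all genes, with a median log2 ratio of 3.19 against -0.28 for all genes, and 6.89 at bounds, with factors without beta reads set at their lowest fold. For the list of alpha transcription factors it was 0 with medians over cells, 0.95 with 10 RPM added and 1.71 as a difference of mean log2 values. Irx1, Irx2 and Pou3f4, all homeodomain factors, had 0 reads in all 54 beta cells. Against a floor of 3 reads over the beta cells (0.0398 RPM) they were at least 119-fold, 232-fold and 1397-fold higher in alpha cells. Pou3f4 held 58.3% of its alpha level in cell 84, without which the log2 ratio of 5.82 was 4.68. Irx1 held 64.1% in cell 85, and its 2.52 was 1.48 without it.

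Irx1, Irx2 and Pou3f4 nonetheless had no read in many alpha cells. Irx1 and Pou3f4 were each read in 6 of 18 (33.3%), and after thinning to 100000 reads in 2 and 5. Irx2 reached 33.3% of alpha cells after thinning, from 55.6% before.

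Beta cell factors were few, and their counts are given beside 11.7% of all genes higher in alpha and 28.7% in beta cells. Of 6 on the list, Mnx1 was not analysed here, Mafa and Pax4 had 0 reads in both classes, and of the other 3, 2 (66.7%) were at least 2-fold higher in beta cells and 0 in alpha cells. The median was -2.51, or -5.19 at bounds. For the list of beta transcription factors it was -0.56 with 10 RPM added, -1.39 as a difference of mean log2 values and -0.68 with medians over cells. Pdx1, the master regulator of beta cells, was read in 0 of 18 alpha cells (interval up to 18.5% for cells with a read) and in 37 of 54 beta cells (68.5%, interval 54.4% to 80.5%; 57.4% after thinning). It was at least 243-fold higher in beta cells against a floor of 3 reads over the alpha cells (0.129 RPM). Nkx6-1, which guards beta identity, was read in 0 of 18 alpha and 29 of 54 beta cells (53.7%; 22.2% after thinning), at least 36.5-fold higher. Fev, a factor of endocrine progenitors, had 8 alpha reads and 0 beta reads.

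Factors shared by all islet endocrine cells leaned to the beta side. Of 15 compared, 1 (6.67%) was at least 2-fold higher in alpha and 7 (46.7%) in beta cells, against 11.7% and 28.7% of all genes, with a median of -0.95, or 0 with medians over cells and -0.36 with 10 RPM added for the list of pan-endocrine transcription factors, and Glis3 was not analysed here. Neurod1, a driver of endocrine fate, stood at 3.16, 220 and 1484 RPM in alpha cells and at 3.48, 393 and 3811 RPM in beta cells, a log2 ratio of -1.22 with overlapping ranges. Pax6, which activates several islet hormone genes, stood at 0.30, and at -0.97 without alpha cell 59. Mlxipl, the glucose-responsive factor ChREBP, had 0 alpha reads and was at least 80.3-fold higher in beta cells, where cell 10 held 57.8% of it. Meis2 stood at -1.78, and at -3.56 without alpha cell 8. St18 stood at -1.47, and at -2.26 without alpha cell 69.

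Other genes listed for alpha cells were more often higher in alpha cells than all genes were, though their median depended on the measure. Of 12 compared, 7 (58.3%) were at least 2-fold higher in alpha cells and 1 (8.33%) in beta cells, against 11.7% and 28.7% of all genes, with a median of 1.34. For the list of other alpha markers it was 0 with medians over cells, 0.53 as a difference of mean log2 values, 0.73 with 10 RPM added, 0.98 with other hormones limited to 100 RPM and 0.91 without alpha cell 85, all within 2-fold. Gc, the vitamin D binding protein, stood at 0.504, 1715 and 3754 RPM in alpha cells and at 0.577, 322 and 4026 RPM in beta cells, a log2 ratio of 1.65. Its ranges overlap almost fully, though the alpha cell was higher in 81.7% of pairs. Ttr, the thyroid hormone carrier transthyretin, was read in 7 of 18 alpha and 2 of 54 beta cells, with a ratio of 4.10. It was 3.44 without alpha cell 66 and 5.28 without beta cell 93. Cryba2, a crystallin, had a ratio of 3.09 and Gpx3, a secreted glutathione peroxidase, one of 2.46, or 1.795 without alpha cell 42. Sstr2, a somatostatin receptor, was read in alpha cell 53 alone. Dpp4, the protease that cuts incretins, had a ratio of 1.75 and of 0.48 without alpha cell 85, and 3.79 without beta cell 96.

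Other genes listed for beta cells were at least 2-fold higher in beta cells in 17 of 21 cases (80.95%) and in alpha cells in 2 (9.52%), against 28.7% and 11.7% of all genes, with a median of -3.71. G6pc2 was not analysed here, and Dlk1 and Adcyap1 had 0 reads. Npy, neuropeptide Y, stood at a mean of 1.56 RPM in alpha and 211 RPM in beta cells, a ratio of -6.38, and 39.9% of its beta level lay in cell 55. The ratio was -5.67 without that cell and -7.37 without alpha cell 34. Gad1 and Gad2, which make the transmitter GABA, stood at -4.29, or -6.35 without alpha cell 84, and at -5.62. Glp1r, the receptor of the incretin GLP-1, stood at 0, 2.34 and 9.48 RPM in alpha cells and at 0, 6.79 and 407 RPM in beta cells, a ratio of -3.43. The Glp1r ranges overlap, since most beta cells were as low as the alpha cells. Ucn3, a peptide of mature beta cells, stood at -1.78 and Slc30a8, the zinc transporter of insulin granules, at -2.24. Ppp1r1a stood at -1.59, and at -5.65 without alpha cell 9.

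Prohormone processing genes were few. Of 8 compared, 1 (12.5%) was at least 2-fold higher in alpha and 3 (37.5%) in beta cells, beside 11.7% and 28.7% of all genes, with a median of -0.43, or 0.20 for the list of prohormone processing with medians over cells, and Qpct was not analysed here. Pcsk2, the convertase that frees glucagon from proglucagon, stood at 432, 1362 and 5679 RPM in alpha cells and at 9.84, 993 and 8207 RPM in beta cells, a log2 ratio of 0.70 with overlapping ranges. Its chaperone Scg5 stood at 0.89 and the Pcsk1 inhibitor gene Pcsk1n at 1.06. Cpe, the carboxypeptidase that trims the cut ends, stood at 0.08. Pam, which amidates peptides such as amylin, stood at -1.52 and Furin at -1.26.

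Of granule and exocytosis genes, 54.5% and 55.6% were within 2-fold, near the 59.6% of all genes. Of 11 granule genes, 1 was at least 2-fold higher in alpha and 4 in beta cells, with a median of -0.21. Vat1l was not analysed here, and Cltrn was not analysed under that name (its older symbol Tmem27 is given above). Scg2, a secretogranin, stood at 50.5, 2109 and 4672 RPM in alpha cells and at 547, 5182 and 22026 RPM in beta cells, a ratio of -1.36 with overlapping ranges. Chga and Chgb, the chromogranins, stood at 0.63 and 0.87, and Scgn, a calcium sensor, at -1.56. Of 18 exocytosis genes, 1 was at least 2-fold higher in alpha and 7 in beta cells, with a median of -0.81, while Rab37 was not analysed here and Doc2b had 0 reads. Rab27a, the small GTPase that tethers granules through granuphilin, stood at -2.07, or -3.01 without alpha cell 8, and Snap25, a SNARE of membrane fusion, at -0.76. Unc13a, a priming factor, had 1 alpha read, and the ratio of its pooled reads was 0.00376 with an interval of 0.0000951 to 0.0210.

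Genes of glucose metabolism were lower in alpha cells as a group. Of 23 compared, 2 (8.70%) were at least 2-fold higher in alpha and 18 (78.3%) in beta cells, against 11.7% and 28.7% of all genes, with a median of -1.51, or -2.15 without alpha cell 42. G6pc2 was not analysed here, Pkm2 was not analysed under that name (Pkm is given above), and Slc2a3 and Hk2 had 0 reads. Gapdh, of the middle of glycolysis, stood at 12.7, 185 and 1425 RPM in alpha cells and at 102, 744 and 2061 RPM in beta cells, a ratio of -1.62. Pgk1 stood at 1.05, 220 and 1994 RPM in alpha cells and at 0, 1276 and 3151 RPM in beta cells, a ratio of -1.84. Both ranges overlap, and cell 42 was the alpha cell highest in either gene. Aldoa stood at -1.05, Eno1 at -1.59 (-2.30 without cell 42) and Gpi at -1.51.

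Steps at the mitochondrion and around glycolysis differed by gene. Gpd2, of the glycerol phosphate shuttle, stood at -4.80, and at -6.02 without alpha cell 58. Pc, the pyruvate carboxylase, had 3 alpha reads, and the ratio of its pooled reads was 0.00787 with an interval of 0.00162 to 0.0231. Pfkfb3, which makes an activator of phosphofructokinase, was on the other side at 4.97, or 3.58 without alpha cell 77. Hk1, a hexokinase listed as disallowed in beta cells, was read in alpha cell 42 alone.

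Genes that beta cells are known to keep silent were more often higher in alpha cells than all genes were, but by median they depended on single cells. Of 15 such disallowed genes, 5 (33.3%) were at least 2-fold higher in alpha and 2 (13.3%) in beta cells, against 11.7% and 28.7% of all genes. The median of the list of disallowed genes, 0.81, became -0.04 without alpha cell 42 and -0.03 without the 2 alpha cells with at least 1000 RPM of Ppy. Igfbp4, which binds insulin-like growth factors, stood at 2.28. Mgst1, a glutathione transferase, stood at 2.58 and at 0.49 without cell 42, and Cxcl12, a chemokine, at 1.74 and 0.47. Cat, the catalase that breaks down hydrogen peroxide, was higher in beta cells at -2.04, and Ldha, the lactate dehydrogenase, stood at -0.41 and at -2.89 without cell 42.

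Ion channels higher in alpha cells were more frequent than among all genes. Of 26 compared, 7 (26.9%) were at least 2-fold higher in alpha and 8 (30.8%) in beta cells, against 11.7% and 28.7% of all genes, with a median of -0.18 (-0.25 at bounds; 0.56 for the list of ion channels when a mean of at least 5 RPM was required), while Scn2a was not analysed here and Kcnd3 and Trpm4 had 0 reads. Abcc8, the sulfonylurea receptor of the potassium channel that glucose metabolism closes, stood at 1.01, 186 and 714 RPM in alpha cells and at 0, 134 and 911 RPM in beta cells. Its ranges overlap almost fully, and its log2 ratio was 0.22. Kcnj11, the pore of that channel, stood at -1.12. Kcnk16, a background potassium channel, stood at 2.64, or 3.29 without beta cell 39, and was read in 11 of 18 alpha and 15 of 54 beta cells. Kcnma1, a calcium-activated potassium channel, stood at -2.08, and at -3.65 without alpha cell 94. Scn9a, a sodium channel, stood at 2.92, and at 1.87 without alpha cell 94.

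Receptors gave much the same shares. Of 27 compared, 8 (29.6%) were at least 2-fold higher in each class, against 11.7% and 28.7% of all genes, with a median of 0.15, or -0.56 for the list of receptors without the 2 alpha cells with at least 1000 RPM of Ppy, and Sstr1, Sstr5, Adrb1, Ptger3, Htr1d and Ghsr had 0 reads. Gcgr, the glucagon receptor, had 0 reads in all alpha cells and was read in 15 of 54 beta cells, at least 341-fold higher, with 43.4% of the beta level in cell 72. Avpr1b, a vasopressin receptor, had 0 beta reads and was at least 674-fold higher in alpha cells, with 80.7% of that level in cell 9. Ffar4, a receptor of long-chain fatty acids, had 1 beta read, and the ratio of its pooled reads was 1246 with an interval of 222 to 49338. Lpar1 was read in alpha cell 42 alone among alpha cells. Gipr, the receptor of the incretin GIP, stood at -1.08.

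Growth factor signalling and amino acid genes were within 2-fold in 63.2% and 64.3% of cases, near the 59.6% of all genes. Of 19 genes of insulin signalling and growth factor receptors, 3 were at least 2-fold higher in alpha and 4 in beta cells, with a median of -0.24, and Irs1 and Erbb2 had 0 reads. Igf1r, the receptor of insulin-like growth factor 1, stood at 0, 0.949 and 1015 RPM in alpha cells and at 0, 254 and 3490 RPM in beta cells. Its ranges overlap, and its ratio was -2.91, or -4.82 without alpha cell 77. Prlr, the prolactin receptor, stood at -3.05, and at -4.36 without alpha cell 27. Of 14 genes of glutamate and amino acid handling, 3 were at least 2-fold higher in alpha and 2 in beta cells, with a median of 0.02, and Grik2, Slc17a6, Slc17a7 and Slc1a1 had 0 reads. Slc7a8, an amino acid transporter, stood at 1.57, while Slc38a1, which carries glutamine, stood at -3.92, or -4.63 without alpha cell 85.

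By mean level, genes of S phase, mitosis and cytokinesis were lower in alpha than in beta cells, while G1 genes lay at the median of all genes. Of 37 genes of G2 and M phase, 1 was at least 2-fold higher in alpha and 26 (70.3%) in beta cells, with a median of -1.93. For all genes the shares were 11.7% and 28.7% and the median -0.28. Of 35 S phase genes the counts were 1 and 20 (57.1%), with a median of -1.35, and of 14 cytokinesis genes 0 and 11 (78.6%), with a median of -2.14. Of 17 G1 cyclins, kinases and inhibitors they were 0 and 3 (17.6%), with a median of -0.28, and Cdkn2a and Mycn had 0 reads. Top2a, the topoisomerase that untangles chromosomes, stood at 0, 1.15 and 93.7 RPM in alpha cells and at 0, 1.68 and 2408 RPM in beta cells, a ratio of -4.65. Mki67, the proliferation marker Ki-67, stood at 0, 0 and 83.6 RPM in alpha cells and at 0, 0.689 and 2303 RPM in beta cells, a ratio of -4.18. The ranges of both overlap and the medians are close, so the ratios come from the beta cells at the high end. Without alpha cell 20 they were -6.33 for Top2a and -5.07 for Mki67.

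Part of these sums lay in single cells. Added over the 37 genes of G2 and M phase, alpha cells ran from 1.51 through 27.9 to 4073 RPM and beta cells from 0.780 through 103 to 19086 RPM. The ranges overlap, and the highest cells were alpha cell 20, with reads of 33 of the genes, and beta cell 16, with reads of all 37. They held 52.5% and 22.1% of the summed level of their class, and 69.9% and 19.1% of that of the cytokinesis genes. The median log2 ratio of these genes was -4.07 without cell 20, and that of the cytokinesis genes was -3.81. For G2 and M phase it was -1.46 when cells with at least 10 RPM of Ccnb1 were left out, 1 alpha and 10 beta cells. The medians of the S phase, mitosis and cytokinesis lists were all 0 when medians over cells replaced means. The S phase sum ran from 51.5 through 528 to 3559 RPM in alpha cells and from 165 through 705 to 9614 RPM in beta cells. Those ranges overlap too, and the highest cells, alpha cell 58 and beta cell 95, held 23.1% and 9.35% of the sum of their class.

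The genes of each phase can be named. Rrm2, which makes deoxynucleotides, had a ratio of -5.56, or -6.25 without alpha cell 20, and Mcm3, of the replicative helicase, one of -3.82, or -5.48 without alpha cell 42. Chaf1b, of a chromatin assembly factor, had 1 alpha read, and the ratio of its pooled reads was 0.00211 with an interval of 0.0000534 to 0.0118. Plk1, a mitotic kinase, had 2 alpha reads, with a pooled ratio of 0.00361 and an interval of 0.000437 to 0.0131. Kif23, a kinesin of the midbody, had 0 alpha reads and was at least 174-fold higher in beta cells. Aurkb, of the chromosomal passenger complex, stood at -4.14, at -5.46 without cell 20 and at -3.15 without beta cell 17. Foxm1, a factor that switches on mitotic genes, was the 1 gene of G2 and M phase past 2-fold on the alpha side, at 2.53. However, 97.8% of its alpha level lay in cell 9, and the ratio was -2.30 without that cell. It was 3.35 without beta cell 17. Ccnd1, the cyclin D1 of early G1, stood at -2.78 and Ccnd3, cyclin D3, at -4.42.

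Counted by cells with a read, the difference was smaller than by level. Ccnb1, the cyclin B1 that carries cells into mitosis, was read in 2 of 18 alpha cells (11.1%, interval 1.38% to 34.7%) and 16 of 54 beta cells (29.6%, interval 17.98% to 43.6%). After thinning the shares were 5.56% and 18.5%. Its log2 ratio was -2.27, and -6.30 without alpha cell 20. Mki67 was read in 27.8% of alpha and 57.4% of beta cells, and in 16.7% and 25.9% after thinning. Top2a was read in 72.2% and 81.5%, and in 11.1% and 29.6% after thinning. Cdk1, the kinase partner of cyclin B1, was read in 55.6% and 53.7%, and in 22.2% and 29.6% after thinning. The intervals of the classes overlap for each of these genes, and whether the shares differ was not tested. Pcna, the sliding clamp of replication, was read in 72.2% and 90.7%, and after thinning in 38.9% (interval 17.3% to 64.3%) and 83.3% (interval 70.7% to 92.1%), which do not overlap.

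**Figure D3:**
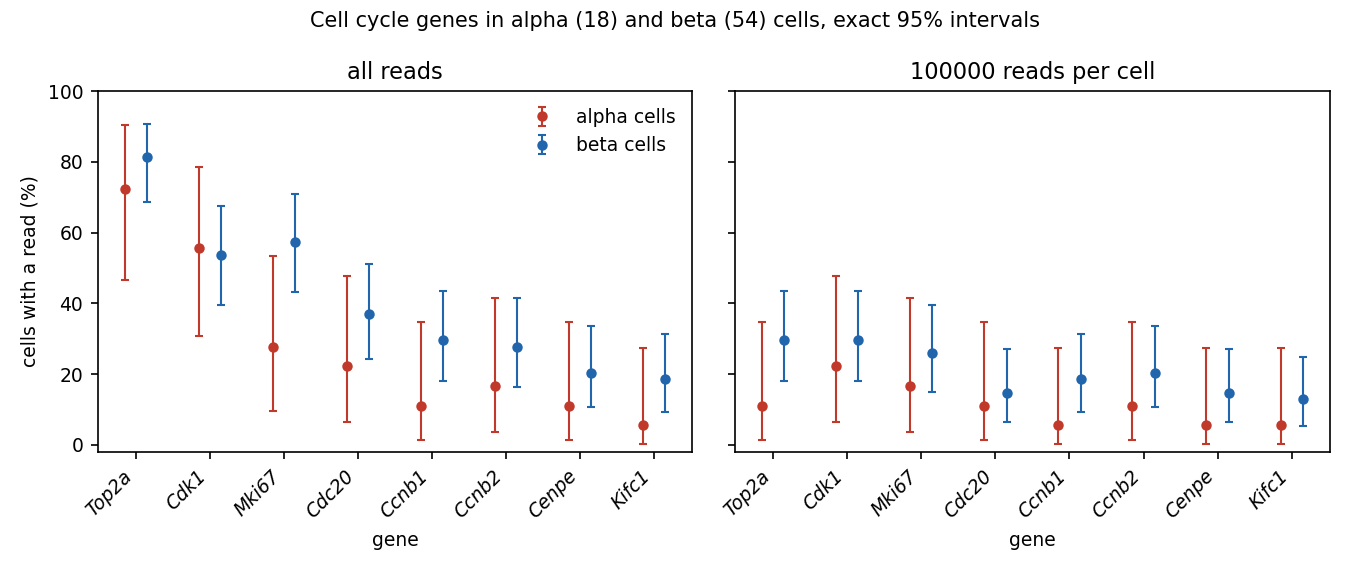
Share of 18 alpha (red) and 54 beta (blue) cells with a read of 8 cell cycle genes, with exact 95% intervals, from all reads (left) and after thinning each cell to 100000 reads (right). The alpha and beta intervals overlap for every gene shown, as for Ccnb1 at 11.1% and 29.6%. The genes are Top2a, Cdk1, Mki67, Cdc20, Ccnb1, Ccnb2, Cenpe and Kifc1, and Pcna is not shown.

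Other genes the study names had these values. Cdc20, an activator of the anaphase-promoting complex, stood at -1.47, and at -5.60 without alpha cell 20. Cenpe, a kinetochore motor, stood at -1.31, and at -4.49 without cell 20, and Kifc1, a minus-end kinesin, at -1.39 and -4.40, and at -0.77 without beta cell 16. Spag5, a spindle protein, stood at -4.14. The log2 ratio of Cdk1 was -1.71, or -2.83 without alpha cell 9, and 0.28 when cells with at least 10 RPM of Ccnb1 were left out.

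Of genes around the kinases that GNF4877 inhibits, 55.6% were within 2-fold, near the 59.6% of all genes. Of 18 genes of the DYRK, GSK3, CLK and NFAT list, 2 were at least 2-fold higher in alpha and 6 in beta cells, with a median of -0.37, and Dyrk4, Nfatc2 and Nfatc4 had 0 reads. Dyrk1a itself was read in 5 of 18 alpha and 9 of 54 beta cells, with a ratio of 0.73, or -0.48 without alpha cell 53 and 1.58 without beta cell 81. Gsk3b stood at 0, 11.7 and 453 RPM in alpha cells and at 0, 31.2 and 899 RPM in beta cells, a ratio of -1.29. The Gsk3b ranges overlap. Clk1, a kinase of splicing factors, was higher in alpha cells at 1.65, with the alpha cell higher in 73.3% of pairs. Ppp3ca, the catalytic subunit of calcineurin, stood at -1.88. Nfatc1, a factor that calcineurin sends to the nucleus, stood at 1.46, at -0.14 without alpha cell 94 and at 2.69 without beta cell 74.

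Of 11 beta-catenin and Wnt response genes, 1 (9.09%) was at least 2-fold higher in alpha and 2 (18.2%) in beta cells, against 11.7% and 28.7% of all genes, with a median of -0.25 (-0.42 at bounds). Znrf3 was not analysed here, and Lef1, Nkd1, Notum, Sp5, Lgr5 and Tnfrsf19 had 0 reads. Ctnnb1, beta-catenin itself, stood at 1.32 (0.91 without alpha cell 84) and Apc, of the complex that degrades it, at -1.62. Axin1, of the same complex, stood at -0.42, and at -4.69 without alpha cell 94, the only alpha cell in which it was read.

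Genes of protein folding and stress in the endoplasmic reticulum were lower in alpha cells. Of 27, 1 (3.70%) was at least 2-fold higher in alpha and 16 (59.3%) in beta cells, against 11.7% and 28.7% of all genes, with a median of -1.11, or -0.77 when cells were scaled without hormone reads. Ero1lb, an oxidase that forms the disulfide bonds of proinsulin, stood at a mean of 4.39 RPM in alpha and 69.4 RPM in beta cells, a ratio of -3.71. It was -4.95 without alpha cell 8. Ero1l, its close relative, stood at -2.86, Creld2 at -2.25 (-3.03 without alpha cell 27) and Dnajb11, a co-chaperone of BiP, at -1.85.

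Immediate early genes, which respond within minutes to stimuli and also to cell dispersal, were within 2-fold for 13 of 20. In all, 2 were at least 2-fold higher in alpha and 5 in beta cells, 10% and 25% beside 11.7% and 28.7% of all genes, with a median of 0.36. Nr4a1, an orphan nuclear receptor, stood at -3.19, at -4.47 without alpha cell 85 and at -2.52 without beta cell 14. Klf4 stood at 1.58, or 0.62 without alpha cell 53. Jun, of the AP-1 factor, stood at 0, 21.1 and 139 RPM in alpha cells and at 0, 0 and 244 RPM in beta cells, a ratio of 0.92. Its ranges overlap, and the alpha cell was higher in 78.1% of pairs.

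Markers of other cell types differed in level from list to list. The 14 mesenchymal markers summed to 0, 11.5 and 11548 RPM in alpha cells, the highest being cell 42, and to 0, 2.44 and 552 RPM in beta cells. The ranges overlap, Vim was the most abundant of them in alpha cells and Lum had 0 reads. Of 13 compared, 7 (53.8%) were at least 2-fold higher in alpha and 1 (7.69%) in beta cells, against 11.7% and 28.7% of all genes, with a median of 1.54, but -0.06 without cell 42 and 0 with medians over cells. Vim kept a ratio of 6.14 without cell 42, from 8.38 with it, and was read in 10 of 18 alpha and 19 of 54 beta cells. Without that cell Col1a1 stood at -0.11, Col1a2 at -0.06, Col3a1 at -0.11 and Sparc at -0.14.

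For the other islet types the lists were short, and their counts stand beside 11.7% of all genes higher in alpha and 28.7% in beta cells. Of 4 delta cell markers compared, 1 was at least 2-fold higher in alpha cells and 0 in beta cells, with a median of -0.34, while Ptchd4 was not analysed here and Ghsr and Cckbr had 0 reads. That 1 gene was Rbp4, and Hhex, a factor that defines delta cells, had 0 reads in alpha cells and 1 in beta cells. Of 3 PP cell markers, 2 were higher in alpha and 1 in beta cells, with a median of 5.04, or 3.66 without alpha cell 8 and 0 with medians over cells. Pyy, peptide YY, was read in 4 of 18 alpha and 7 of 54 beta cells, with 65.2% of its alpha level in cell 8, which also held Ppy. Of the epsilon cell markers Ghrl and Spink3 had 0 reads, and Asgr1 stood at -2.10, with 85.6% of its beta level in cell 72 and a ratio of -0.17 without it and of -2.88 without alpha cell 8.

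Exocrine, vascular, immune and neural markers gave small counts, to be held against 11.7% of all genes higher in alpha and 28.7% in beta cells. Of 11 duct markers, 3 were at least 2-fold higher in each class, with a median of -0.20. They summed to 1.95, 367 and 3249 RPM in alpha cells and to 28.7, 967 and 4554 RPM in beta cells, with overlapping ranges, Krt18 the most abundant in alpha and Krt8 in beta cells. Spp1, osteopontin, stood at 4.20, at 3.49 without alpha cell 85 and at 5.91 without beta cell 39. Cldn4, a claudin of tight junctions, stood at 3.46, at 2.57 without alpha cell 9 and at 4.12 without beta cell 47, while Krt8, a keratin also found in endocrine cells, stood at -2.36. The acinar enzyme genes Prss1, Prss2, Cpa1, Cpb1, Amy2a3, Cel, Cela3b, Pnlip and Clps and the acinar factor Ptf1a had 0 reads in both classes. Of 5 acinar markers compared, 1 was higher in each class past 2-fold, with a median of -0.12, and Amy2 was not analysed here. Their sums ran to 128 RPM in alpha and 611 RPM in beta cells, the latter from Bhlha15. Of 4 endothelial markers, 1 was higher in alpha and 2 in beta cells, with a median of -0.39 (-0.47 at bounds), at -1.01 without alpha cell 42 and at 0.22 without beta cell 78, and Cdh5, Kdr, Tek, Tie1, Vwf and Emcn had 0 reads.

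Of 6 immune markers, 0 were higher in alpha and 2 in beta cells past 2-fold, with a median of 0.00. Cd74, the invariant chain of antigen presentation, stood at -2.32, and at -5.63 without alpha cell 9. Aif1, Lyz2, Csf1r, Itgam, Cd3e, Tyrobp and Fcer1g had 0 reads in either class. Of 3 neural and Schwann cell markers, 0 were higher in alpha and 2 in beta cells, with a median of -2.11, or -0.64 without beta cell 46. Tubb3, a tubulin of neurons also found in beta cells, stood at -2.11, and S100b, Sox10, Gfap and Foxd3 had 0 reads. The part of any of these cells in the ratios was not tested.

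In the DMSO cells most genes at the extremes lay past 2-fold on the same side, though their ratios could be far apart. There 1687 of 16786 genes (10.1%) were at least 2-fold higher in alpha cells and 6641 (39.6%) in beta cells, with a median of -0.60, from 5 and 50 cells. Most DMSO cells with Gcg at the threshold are not in this contrast, because they also held Ins1 at it. Of the 15 genes highest in treated alpha cells, 12 were at least 2-fold higher in DMSO alpha cells, and of the 15 lowest, 14 were at least 2-fold lower. Among genes with at least 10 RPM, 292 of the 1242 higher in treated alpha cells were also higher in DMSO alpha cells, which is 23.5% of the first list and 32.8% of the second. On the beta side 1653 of 2932 were shared, 56.4% of the treated and 39.4% of the DMSO list. Of all 9091 genes at that level, 9.80% were higher in DMSO alpha cells and 46.2% in DMSO beta cells. A further 488 genes on the alpha side and 234 on the beta side lay past 2-fold in the opposite direction in DMSO cells, 7.94% of the 9091. The difference between treatments was not tested.

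Single genes show where the treatments were alike and where they stood apart. Etv1 had a log2 ratio of 8.61 with GNF4877 and 7.08 with DMSO, and Rbp4 7.15 and 5.10. Slc2a2 had -8.09 and -7.11, Pcsk1 -5.60 and -5.37, and Fam151a -7.16 and -7.64. Hadh had -7.71 with GNF4877 and -2.09 with DMSO, with means of 4.52 RPM in treated and 230.4 RPM in DMSO alpha cells. Iapp had -5.85 and -3.21, with means of 4726 RPM in treated and 1737 RPM in DMSO beta cells. Serpina1 had 6.33 and 1.90, and Pclo -5.35 and -0.82. The values without single cells given above hold for these genes too.

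Lists can be set side by side in the same way. The median of the alpha cell factors was 3.19 with GNF4877 and 4.38 with DMSO, and that of the other beta cell markers -3.71 and -3.20. Genes of G2 and M phase had -1.93 and -1.37, where DMSO alpha cells summed to at most 51.999 RPM of these 37 genes and DMSO beta cells to at most 2762 RPM. These highest sums were in DMSO alpha cell 89 and DMSO beta cell 46, which held 66.6% and 52.8% of the summed level of their class. DMSO beta cell 46 also held 72.6% of the DMSO beta sum of the cytokinesis genes. The pan-endocrine factors had -0.95 and 0.66, and the disallowed genes 0.81 and -0.87. Folding and stress genes of the endoplasmic reticulum had -1.11 and -2.48. Immediate early genes had 0.36 and 1.64, with 13 of 20 at least 2-fold higher in DMSO alpha cells, against 10.1% of all genes there. Mesenchymal markers had 1.54 and -5.26, and their highest sum among DMSO beta cells was 20568 RPM, in cell 46.

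**Figure D4:**
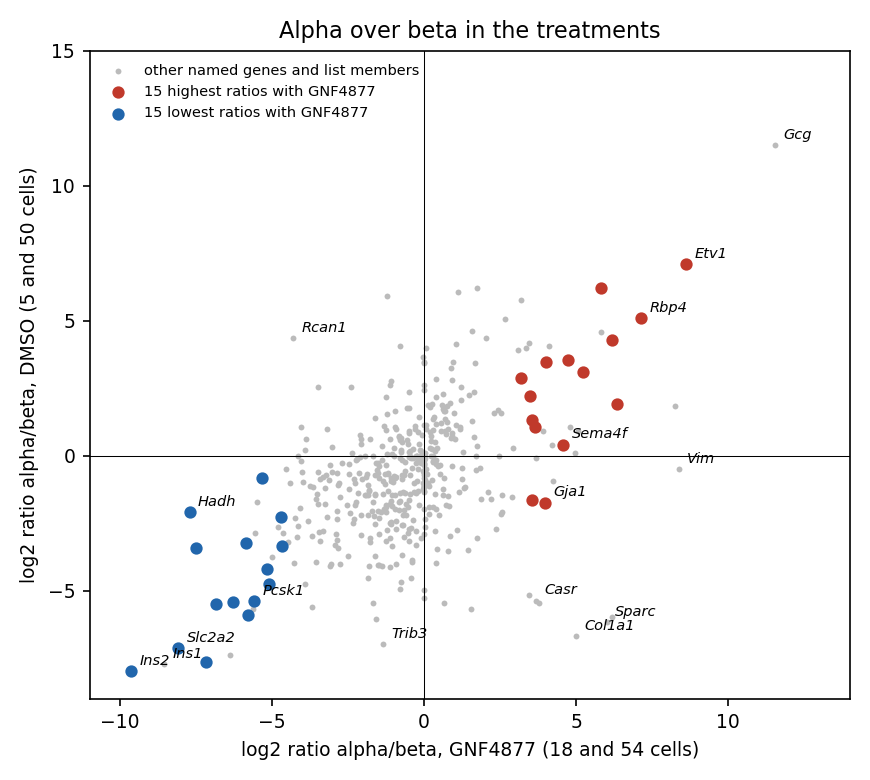
Log2 ratio of alpha to beta cells in GNF4877-treated islets (x) against DMSO islets (y) for the named genes and list members, with the 15 highest ratios in red and the 15 lowest in blue. Etv1, Rbp4, Slc2a2 and Ins2 lie far from 0 in both treatments, while Col1a1 (5.00 and -6.69) and Rcan1 (-4.30 and 4.37) lie on opposite sides.

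Promoter letters of the hormone genes can be described as well. RefSeq promoters of GRCr8, from 250 bases before to 50 after the gene start, matched 7 of 8 genes looked up, and 3 are shown because these hormones define or divide the classes. The letters searched on both strands were GCCATCTG (reverse CAGATGGC), an E box of insulin promoters, and TAAT (reverse ATTA), the core bound by homeodomain factors such as Pdx1. Of 33469 promoters of this length, 1.23% hold GCCATCTG and 60.6% hold TAAT. Ins1 holds 2 matches of GCCATCTG and 6 of TAAT, Ins2 holds 1 and 4, and Gcg holds 0 and 2. Of the genes not shown, Iapp holds 0 and 4, Slc2a2 holds 0 and 1, and Etv1 and Rbp4 hold 0 of either. In both insulin promoters 1 pair of overlapping TAAT matches forms TAATTA, which 5.36% of promoters hold. Capitals mark the matches of either motif, the sequences run 5′ to 3′ on the gene's strand, and a match is a description of letters only. They are Gcg at chr3:67531484-67531783 on the minus strand, Ins1 at chr1:261185869-261186168 on the plus strand and Ins2 at chr1:207273756-207274055 on the minus strand.
Gcg: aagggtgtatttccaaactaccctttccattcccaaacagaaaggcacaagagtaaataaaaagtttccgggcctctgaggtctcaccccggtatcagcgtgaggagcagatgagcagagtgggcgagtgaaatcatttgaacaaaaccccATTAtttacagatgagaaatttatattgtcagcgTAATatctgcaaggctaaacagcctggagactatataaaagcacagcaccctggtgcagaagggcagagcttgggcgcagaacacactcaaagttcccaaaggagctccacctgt
Ins1: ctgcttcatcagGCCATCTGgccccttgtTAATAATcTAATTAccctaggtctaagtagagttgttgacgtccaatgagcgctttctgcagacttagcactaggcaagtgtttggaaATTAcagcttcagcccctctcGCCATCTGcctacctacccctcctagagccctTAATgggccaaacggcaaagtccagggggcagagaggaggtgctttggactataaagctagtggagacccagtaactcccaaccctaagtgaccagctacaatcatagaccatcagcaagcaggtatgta
Ins2: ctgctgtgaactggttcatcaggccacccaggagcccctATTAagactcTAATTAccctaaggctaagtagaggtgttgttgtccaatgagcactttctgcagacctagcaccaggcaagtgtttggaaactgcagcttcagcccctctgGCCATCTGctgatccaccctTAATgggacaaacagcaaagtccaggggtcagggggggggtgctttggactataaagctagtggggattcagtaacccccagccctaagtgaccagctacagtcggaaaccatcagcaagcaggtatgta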

How the data were processed

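The deposited table holds RPM (reads of each transcript relative to all reads mapped in that cell), computed by the authors and not divided by transcript length, with 0.01 where no read was counted. Upstream, CASAVA 1.8.2, BWA 0.5.9 and SAMtools 0.1.19 were used on single 50 bp reads, with 1 plate per lane. Alignment is described as to a mouse transcriptome, but the 27586 entries are rat RefSeq transcripts, and which was used is not settled here. Here 0.01 was set to 0, transcripts were added up to 24113 genes, and cells totalling under 300000 RPM were left out. Read numbers were recovered from the smallest step of each column. Among values of at most 20 reads, 100% came out whole to within 0.1. A log2 ratio is that of class means with 1 RPM added, and past 2-fold is called. Thinning drew 100000 reads per cell and left out 0 alpha or beta cells. Intervals are exact Clopper-Pearson (95%) for shares. Doublets were not removed.

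Named genes were the marker genes, the 15 highest and 15 lowest ratios among genes read in at least 75% of the cells of the higher class at a mean of at least 10 RPM (Gcg, Ins1, Sst and Ppy left out), up to 4 genes of each of 31 lists, and those the study names. Members and lists were chosen with earlier results of these data known. Genes of the pair measure and other genes outside these rules were chosen after their values were seen. Sst and Ppy were left out of the list counts. Some list members are counted in the totals but not reported here. Values were checked on simulated tables. Alternatives varied the added constant, the summary over cells, the scaling, the thresholds, the depth and the cells. Calculations ran under Python 3.11.15 with scipy 1.17.1, pandas 2.3.3 and numpy 2.4.6, and plots with matplotlib 3.10.9.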

Additional observations from a re-analysis of the deposited data

Results flagged for a closer look

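Of 205 named genes, 17 lay past 2-fold in opposite directions in the treatments, on the log2 ratio of alpha to beta cells. That is 8.29%, near the 7.94% of all 9091 genes with at least 10 RPM. With 1 sample per treatment and 5 alpha cells in DMSO, none of these differences was tested, and treatment, chip and lane cannot be told apart. The DMSO alpha cells are also a minority of the DMSO cells with Gcg at the threshold, as given above.

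With GNF4877, 13 of the 17 were higher in alpha cells. Matrix genes form the largest group. Col1a1 had 5.00 with GNF4877 and -6.69 with DMSO, Col1a2 had 3.79 and -5.44, and Col3a1 had 6.17 and -5.98. Col6a1 had 3.44 and -5.17, Dcn 1.54 and -5.67, and Sparc 6.01 and -6.17. Treated alpha cell 42 held 84.7% to 100% of the alpha level of each of these genes, and DMSO beta cell 46 held 51.6% to 82.4% of the DMSO beta level. That cell had the largest mesenchymal sum, 20568 RPM against a median of 4.17 RPM among DMSO beta cells. Gja1 had 3.97 and -1.73, with 94.6% of the alpha level in alpha cell 42 and 85.3% of the DMSO beta level in beta cell 24.

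Sox9, a factor of duct cells, had 2.90 and -1.53, all of it in treated alpha cell 85. Slc16a1, a lactate and pyruvate carrier, had 2.36 and -2.70, with 81.9% in cell 84 and 63.02% of the DMSO beta level in cell 46. Its ratio with GNF4877 was 0.25 without cell 84, within 2-fold, and 3.78 without beta cell 79. LOC100909569 had 3.55 and -1.63, and Nfatc1 1.46 and -3.49, with -0.14 for Nfatc1 without alpha cell 94. Ctnnb1 had 1.32 and -1.18, with means of 207 RPM in alpha and 82.3 RPM in beta cells of treated islets, and 0.91 with GNF4877 without alpha cell 84, within 2-fold. Ptprn2, a granule protein, had 1.16 and -1.35, and 0.60 with GNF4877 without alpha cell 52, within 2-fold.

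The other 4 were higher in beta cells with GNF4877. Rcan1, an inhibitor of calcineurin, had -4.30 and 4.37, with a mean of 0.0375 RPM in treated and 262 RPM in DMSO alpha cells. Rfx3, a factor of endocrine development, had -2.41 and 2.56, and Dusp1, a phosphatase of MAP kinases, -1.11 and 2.63. With GNF4877, Rfx3 had -3.11 without alpha cell 27, and Dusp1 -1.77 without alpha cell 85 and -0.90 without beta cell 29. Chaf1a, of a chromatin assembly factor, had -4.04 and 1.05.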

How the results depend on the processing

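No paired analysis was possible because each numbered column is 1 cell and a number shared between treatments links no cells. In all, 19 alternatives were run, and 142 named genes and 13 list medians lay past 2-fold as reported. Of these, 11 genes and 2 lists took the opposite sign in some alternative, and the cause was not tested. Foxm1, whose sign turned without 1 alpha cell as given above, is not in this count.

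The number of genes at least 2-fold higher in alpha cells, 1905, was 819 with 10 RPM added, 448 as a difference of mean log2 values and 469 with medians over cells. For beta cells 4667 became 2113, 2675 and 2296 in the same settings, and 3072 with a mean of at least 5 RPM required, which compares fewer genes. Leaving out 1 alpha cell gave 1723 to 1943 genes on the alpha side and 4591 to 4972 on the beta side, and leaving out 1 beta cell gave 1894 to 1926 and 4617 to 4683. Medians over cells and leaving out alpha cell 42 were chosen after seeing the data.

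Leaving out 1 alpha cell gave ranges whose lower end is without cell 42 for matrix genes. The mesenchymal median ran from -0.0587 to 1.59, and log2 ratios from -0.115 to 5.08 for Col1a1, -0.0587 to 3.87 for Col1a2, -0.110 to 6.25 for Col3a1, -0.0239 to 1.59 for Dcn, -0.0414 to 4.31 for Lpar1 and -0.140 to 6.09 for Sparc. Over alpha and beta cells the range was -0.136 (without alpha cell 94) to 2.69 for Nfatc1, -0.305 (cell 9) to 4.66 for Sema4f and -0.0954 (cell 85) to 2.997 for Sox9. With other hormones limited to 100 RPM, which left 16 alpha and 39 beta cells, the epsilon median and the log2 ratio of Asgr1 were 0.0922 and the log2 ratio of Sox9 was -0.1304. Without cells holding at least 10 RPM of Ccnb1, which left 17 and 44, Cdk1 was 0.284.

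With 1 sample per treatment no spread between animals is known. With 18 alpha cells, and reads of many genes in a few of them, a single cell can set a mean, and genes with few reads are limited by depth.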
